A study of Mus musculus with 19 samples.

Results

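The 10 dorsal root ganglion libraries from vehicle-treated mice were ordered by a marrow-marker index, out of 19 libraries in the series. The index of a library was the mean of log2(CPM + 1) over Mpo, Elane, Alas2, Rag1 and Vpreb3, where CPM is the count of a gene per 1000000 counts of the library. The 5 libraries of highest index were set against the 5 of lowest index, and every other expressed gene was correlated with the index. The upper and lower libraries were thus chosen by the levels of the 5 genes, so what follows on the vehicle libraries is a description with no test, unless a test by the surgery labels, in other libraries or of a whole-library measure such as the total count is named. Each library held pooled L3 to L5 ganglia of male mice, from the side of the operated knee in DMM mice. The side taken from naive mice is not given in the sources used here. Each library is numbered within its group in the labels and is called a mouse here, but the labels do not say that it is 1 animal, so p-values measure the spread between these libraries. All mice were homozygous for the MaFIA transgene (macrophage Fas-induced apoptosis), the vehicle mice included. In MaFIA mice the Csf1r promoter drives a Fas fusion protein in macrophages and other myeloid cells, and the dimerizing drug AP20187 triggers the death of cells that carry it. Of the vehicle mice, 5 had osteoarthritis of the knee from surgical destabilization of the medial meniscus (DMM), 8 weeks before treatment began, and 5 were naive and of matched age. Vehicle was injected into the peritoneum daily for 5 days. A further 5 DMM and 4 naive mice received AP20187 on the same schedule, and their 9 libraries, which the ordering did not use, served for the tests. The transgene itself was not analysed here.

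Dorsal root ganglia hold the cell bodies of sensory neurons, wrapped by satellite glia, with Schwann cells, fibroblasts, vessels and macrophages between them. They lie in the openings between vertebrae, and vertebral bone is filled with blood-forming marrow. Marrow makes granulocytes, red cells, platelets and B lymphocytes from shared precursors, and each lineage switches on its own genes in a fixed sequence. Mpo and Elane encode the myeloperoxidase and neutrophil elastase that granulocyte precursors pack into their first granules, and mature neutrophils in blood transcribe little of them. Alas2 encodes the erythroid enzyme that starts haem synthesis. Rag1 encodes a subunit of the recombinase that assembles antigen receptor genes, and Vpreb3 a protein of the pre-B-cell receptor complex. The 5 genes therefore stand for separate lineages that mature together in marrow.

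The promoters of 4 index genes are shown because they carry short motifs that differ by lineage, although the transcripts varied together in these libraries. The sequences are the 250 bases before the start of the gene, 5′ to 3′ on its own strand, from RefSeq on GRCm38.p6. The motifs searched on both strands were GAGGAAGT for the myeloid factor PU.1, AGATAA for the erythroid GATA factors, TTGCNNCAA for C/EBP factors and the E-box CAGGTG. None of these motifs contains another. Capitals mark the matches.

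Mpo, chr11:87793534-87793783, plus strand: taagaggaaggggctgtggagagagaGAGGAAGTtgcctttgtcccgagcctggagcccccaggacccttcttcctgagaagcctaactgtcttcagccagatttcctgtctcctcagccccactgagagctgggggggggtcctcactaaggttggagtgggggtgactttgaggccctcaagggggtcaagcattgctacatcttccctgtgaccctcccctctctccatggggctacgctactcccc

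Elane, chr10:79886062-79886311, plus strand: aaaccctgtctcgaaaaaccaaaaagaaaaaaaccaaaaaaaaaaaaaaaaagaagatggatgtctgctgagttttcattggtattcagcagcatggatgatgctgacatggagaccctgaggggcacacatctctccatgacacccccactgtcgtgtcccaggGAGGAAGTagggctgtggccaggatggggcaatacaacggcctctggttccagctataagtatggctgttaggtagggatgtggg

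Alas2, chrX:150547167-150547416, plus strand: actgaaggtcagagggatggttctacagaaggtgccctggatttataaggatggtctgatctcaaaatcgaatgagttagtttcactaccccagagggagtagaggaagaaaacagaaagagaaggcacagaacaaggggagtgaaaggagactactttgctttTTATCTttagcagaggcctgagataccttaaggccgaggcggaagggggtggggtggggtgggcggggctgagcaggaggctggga

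Rag1, chr2:101649533-101649782, minus strand: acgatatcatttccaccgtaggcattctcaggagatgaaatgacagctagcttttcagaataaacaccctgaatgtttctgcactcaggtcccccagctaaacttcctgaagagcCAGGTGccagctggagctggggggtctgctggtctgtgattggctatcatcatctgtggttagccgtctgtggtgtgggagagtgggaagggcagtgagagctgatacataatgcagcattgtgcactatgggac

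The granule genes Mpo and Elane each held 1 match to the PU.1 motif. Alas2 held 1 match to the GATA motif, on the opposite strand, and Rag1 held 1 E-box. In Vpreb3 none of the 4 motifs was matched in this window. Among 32851 promoter windows of the same length, 2.44% held the PU.1 motif, 9.99% the GATA motif and 17.2% the E-box. The C/EBP motif was in 1.74%. A match is a match of letters only.

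The index ran from 2.29 in DMM vehicle 32 to 6.15 in DMM vehicle 64. In rising order it was 2.29 in DMM vehicle 32, 3.18 in DMM vehicle 33, 3.23 in naive vehicle 5, 3.34 in naive vehicle 2 and 3.73 in naive vehicle 1. The 5 libraries of highest index were naive vehicle 3 at 4.34, DMM vehicle 34 at 4.48, naive vehicle 4 at 4.73, DMM vehicle 63 at 4.85 and DMM vehicle 64 at 6.15. Naive vehicle 3 thus lay just inside the upper set and naive vehicle 1 just outside it. The step between them, 0.606, was smaller than the step of 0.883 above the lowest library and the step of 1.30 below the highest. It was larger than all other steps, which were 0.0575 to 0.389. DMM libraries took both ends of the order, and the naive libraries lay between them. The same 5 libraries were highest under each of the 9 other ways of computing the index that kept all libraries.

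Each index gene was higher in all 5 upper libraries than in any lower library. In the order given above, here and for all series of 10 values, Mpo (ENSMUSG00000009350, GRCm39 chromosome 11, 87684407 to 87695239) was at 7.10, 23.8, 19.1, 25.1 and 31.4 CPM in the lower libraries. It was at 52.7, 62.6, 64.5, 85.2 and 237.9 CPM in the upper libraries, a 4.72-fold difference of the means and 33.5-fold from the bottom to the top library. Elane (ENSMUSG00000020125, chromosome 10, 79722081 to 79724049) was at 2.28, 4.91, 6.24, 6.34, 11.02, 12.3, 15.8, 20.5, 21.1 and 83.6 CPM, the only index gene whose order was that of the index in every library. Alas2 (ENSMUSG00000025270, chromosome X, 149330371 to 149353634) was at 31.9, 54.8, 64.8, 83.6, 81.6, 145.9, 178.4, 316.7, 263.2 and 555.8 CPM. Its highest library after DMM vehicle 64 was naive vehicle 4, not DMM vehicle 63. Rag1 (ENSMUSG00000061311, chromosome 2, 101468627 to 101479846) was at 1.49, 3.36, 2.24, 3.01, 3.97, 7.46, 8.16, 6.30, 7.45 and 14.1 CPM, which is 98 to 878 counts. Vpreb3 (ENSMUSG00000000903, chromosome 10, 75778891 to 75785491) was at 0.304, 0.698, 1.38, 0.651, 1.58, 2.79, 2.17, 3.07, 3.64 and 9.67 CPM, from as few as 20 counts. Rag1 overlaps Iftap on its own strand, and Alas2 and Mpo overlap genes on the opposite strand, so some of their reads may belong to a neighbour. The pairwise correlation of the 5 genes over the 10 libraries was 0.917 to 0.978 (Pearson's r of log2(CPM + 1)), and this description includes the shared library total.

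**Figure D1:**
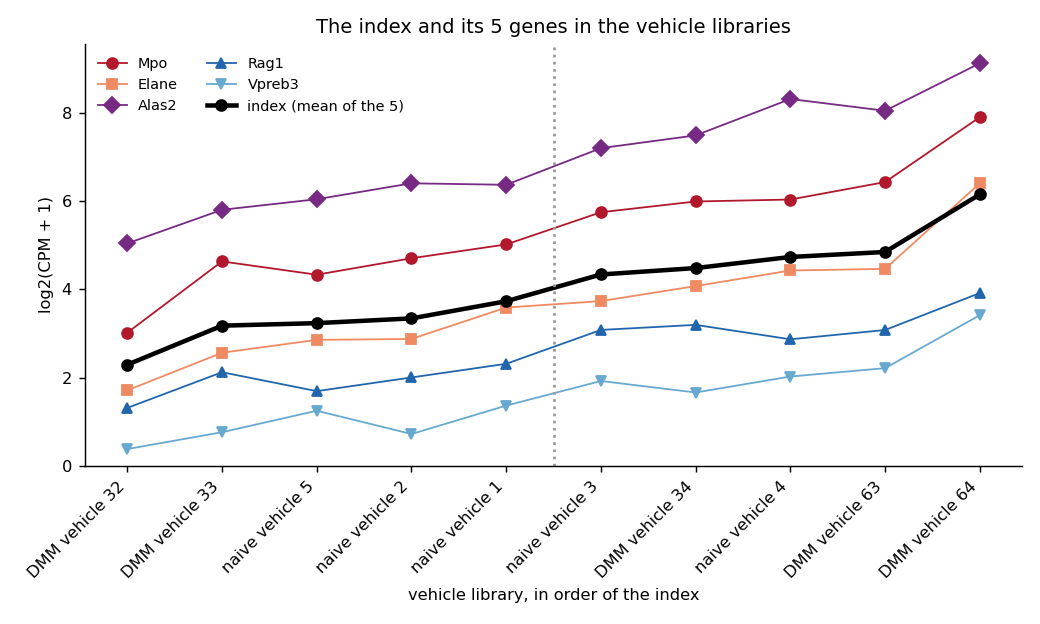
The 10 vehicle libraries in order of the index (x axis) against log2(CPM + 1) (y axis) of the 5 index genes and their mean, the index (black). The dotted line parts the 5 lowest from the 5 highest libraries; all 5 genes climb together, from an index of 2.29 to 6.15.

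The proportions between the index genes changed less than their levels, although not all proportions were equally steady. The ratio of Mpo to Elane counts ran from 2.85 to 4.85 and that of Mpo to Alas2 from 0.204 to 0.435. The globin gene Hbb-bs and Alas2 kept a ratio of 14.4 to 18.5. The ratio of Mpo to Rag1 varied more, from 4.78 in DMM vehicle 32 to 16.9 in DMM vehicle 64, and Alas2 to Rag1 from 16.3 in DMM vehicle 33 to 50.2 in naive vehicle 4. These are ratios of counts, not of levels per gene length.

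The vehicle libraries held 61566267 to 74691396 counts. The library total had an r of -0.404 with the index over the 10 libraries (permutation p 0.248), with a Spearman rho of -0.636 (permutation p 0.0543). The share of counts in the 10 most abundant genes, 5.56% to 10.1%, had an r of 0.545 (permutation p 0.101). The share in mitochondrially encoded genes, 5.08% to 10.03%, had an r of 0.397 (permutation p 0.257), and the number of genes with at least 10 counts, 20343 to 21624, had an r of 0.495 (permutation p 0.148). Spearman rho of these 3 was 0.539, 0.442 and 0.418 (permutation p 0.113, 0.203 and 0.232). None of the 4 relations passed after Benjamini-Hochberg adjustment (adjusted p 0.257 for r and 0.217 to 0.232 for rho). Without DMM vehicle 32 and DMM vehicle 64, the libraries farthest from the median index, the 4 values of r were -0.421, 0.674, 0.695 and 0.321. Without DMM vehicle 32 alone, the r of the 10 most abundant genes was 0.777 (permutation p 0.0129), so that relation depends on this library. Mice 32 to 34 had an index of 2.29 to 4.48, and mice 63 and 64 had 4.85 and 6.15. No label gives a batch, and the part of these measures in the results was not tested.

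A large part of the transcriptome followed the order of the libraries. Of 20594 other genes that passed the filter on low counts, 2907 had an r of 0.8 or more with the index, a background of 14.1%, and 1138 had an r of -0.8 or less (5.53%). A positive r of any size was found for 11614 genes (56.4%). After TMM scaling, which corrects for composition, these were 2257 and 1894, and without DMM vehicle 64 they were 1617 and 176. Leaving out DMM vehicle 32 gave 2516 genes with an r of -0.8 or less, while the numbers were 1880 without DMM vehicle 34 and 1761 without naive vehicle 4. In the 5 upper libraries 1449 genes were at least 2-fold higher without overlap (7.04%), and 36 were at least 2-fold lower without overlap (0.175%). After TMM scaling these were 1170 and 70. The count of lower genes was 312 without DMM vehicle 34, 77 without naive vehicle 4, 65 without DMM vehicle 32, 64 without naive vehicle 3 and 57 without naive vehicle 1. Genes were thus more often higher than lower by 2-fold under both scalings. The 2907 genes together took 5.53%, 5.59%, 5.67%, 5.92% and 6.72% of counts in the lower libraries and 9.49%, 8.59%, 10.7%, 11.3% and 19.9% in the upper libraries. The 1138 genes took 17.3% to 19.04% in the lower libraries and 7.70% to 17.0% in the upper. A principal component analysis without the index genes placed 62.0% of the variance on the first component, whose scores had an r of 0.903 with the index.

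By the naming rule, which asks for a mean of at least 1 CPM and an established symbol, the 12 genes with the highest r were Ccdc125, Rac2, Rin3, Slc40a1, Adgrg3, Hmgb2, Mmp8, Nfe2, Pira1, Ncf1, Alox5 and Dbf4, with r of 0.992 to 0.996, and all were higher without overlap. Rac2 (ENSMUSG00000033220), a GTPase of blood cells that the neutrophil oxidase requires, was at 11.8, 21.7, 22.0, 26.5, 28.9, 56.0, 68.5, 74.2, 77.5 and 214.8 CPM. Its order was that of the index in all 10 libraries. Ncf1 (ENSMUSG00000015950), a cytosolic subunit of the same oxidase, was at 20.3 to 47.4 CPM in the lower and 80.6 to 296 CPM in the upper libraries. Mmp8 (ENSMUSG00000005800), the neutrophil collagenase, was at 26.5 to 75.2 and 121 to 488 CPM. Nfe2, a transcription factor of the erythroid and megakaryocyte lineages, was 4.31-fold higher, and Slc40a1, the iron exporter ferroportin, was 3.37-fold higher. Alox5, which makes leukotrienes, was 3.90-fold higher, Hmgb2, a chromatin protein of dividing cells, 3.65-fold, and Dbf4, an activator of DNA replication, 2.46-fold. Ccdc125 was 3.71-fold, Rin3 3.70-fold and Adgrg3 3.86-fold higher. Pira1, at 4.00-fold, belongs to a family of closely related receptor genes, so the member that gave its reads is uncertain.

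In the granulocyte lists most genes followed the index. All 12 tested genes of a neutrophil granule and cytosol list had an r of 0.8 or more and were higher without overlap, against 14.1% and 7.04% of all genes. Their median r was 0.988, against 0.168 over all tested genes. Their summed CPM, which the most abundant members dominate, was 434, 733, 985, 952, 946, 1925, 2417, 2528, 2968 and 9314. The mean of the upper libraries was 4.73-fold that of the lower, and DMM vehicle 64 was 21.5-fold above DMM vehicle 32. Ngp (ENSMUSG00000032484), a granule protein of maturing neutrophils, was at 126, 222, 292, 307 and 281 CPM in the lower libraries and 597, 724, 789, 907 and 2694 in the upper libraries. Ltf, the secondary granule protein lactoferrin, was at 92.0 to 192 and 438 to 1926 CPM. S100a9, a calcium-binding protein that is abundant in the neutrophil cytosol, was at 65.3 to 159 and 244 to 1418 CPM. Of 7 granulocyte precursor genes beside Mpo and Elane, 6 had an r of 0.8 or more and 4 did not overlap, against the same 14.1% and 7.04%. The median r was 0.957. Prtn3 (ENSMUSG00000057729), the primary granule protease proteinase 3, was at 2.45 to 4.66 CPM in the lower and 8.05 to 57.4 CPM in the upper libraries. Ms4a3, a marker of granulocyte and monocyte precursors, stood apart with an r of 0.649, at 8.11 to 15.7 and 13.0 to 29.9 CPM.

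Among the blood-cell lists, red-cell genes had the largest summed CPM in each vehicle library. All 12 measured erythroid genes had an r of 0.8 or more and 11 did not overlap (14.1% and 7.04% of all genes), with a median r of 0.971. Their summed CPM was 1553, 2602, 3316, 3715, 3719, 6450, 7176, 13250, 11550 and 28790, so naive vehicle 4 lay above DMM vehicle 63 as it did for Alas2. Hbb-bs (ENSMUSG00000052305), an adult beta-globin gene, was at 564 to 1335 CPM in the lower and 2342 to 10260 CPM in the upper libraries. The alpha-globin gene Hba-a1 was 4.75-fold higher in the upper libraries. Globin genes are near-identical copies, so their reads can be divided wrongly between Hba-a1 and Hba-a2 or Hbb-bs and Hbb-bt. Genes that red-cell precursors transcribe in the marrow followed the index too. Klf1, the erythroid master regulator, had an r of 0.974, and Epor, the erythropoietin receptor, had an r of 0.939.

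Genes of developing B cells followed the index from a lower level. All 9 tested early B-lineage genes beside Rag1 and Vpreb3 had an r of 0.8 or more and 8 did not overlap, against 14.1% and 7.04% of all genes. The median r of the 9 was 0.946. Vpreb2, whose reads can fall on the near-identical Vpreb1, did not pass the filter. The summed CPM of the early B-lineage list was 9.74, 18.7, 20.1, 24.4, 33.5, 59.2, 55.6, 62.4, 65.9 and 149.5. Cd79b (ENSMUSG00000040592), a signalling chain of the B-cell receptor, was at 2.61 to 8.21 CPM in the lower and 12.1 to 42.2 CPM in the upper libraries. Pax5, the factor that commits cells to the B lineage, was at 2.49, 4.29, 2.09, 6.81, 5.79, 14.1, 13.9, 16.3, 11.8 and 19.3 CPM, so DMM vehicle 64 was less far above the others than for Mpo. Igll1, the surrogate light chain, and Dntt, the polymerase that adds bases at recombination joints, had r of 0.952 and 0.927. Of 8 mature B-cell and plasma-cell genes, 7 had an r of 0.8 or more and 5 did not overlap, against the same 14.1% and 7.04%. Ighm, the IgM heavy chain, was at 40.9 to 76.8 and 102 to 239 CPM.

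Other blood lineages followed the index in most of their genes. Of 10 eosinophil, basophil and mast-cell genes, 9 had an r of 0.8 or more, against 14.1% of all genes. Prg2, the eosinophil major basic protein, was at 8.70 to 18.4 CPM in the lower and 26.1 to 138 CPM in the upper libraries. Of 12 T-cell and NK-cell genes, 9 had an r of 0.8 or more, against the same 14.1%. The highest r was that of Nkg7, a cytotoxic granule protein (0.965), at 0.319 to 0.893 and 2.44 to 9.39 CPM. Cd3e, Cd3g and Cd4 had r of 0.523, 0.619 and 0.743. Of 10 megakaryocyte and platelet genes 8 had an r of 0.8 or more, against the same 14.1%. None of the 10 was free of overlap, against 7.04% of all genes. Their median r was 0.821, and 0.568 without DMM vehicle 32 and DMM vehicle 64. Ppbp, a platelet chemokine, was at 2.06, 12.7, 9.21, 7.64, 17.4, 8.85, 7.95, 35.8, 21.6 and 103 CPM, high in naive vehicle 4 and DMM vehicle 64. All 14 genes of a proliferation list had an r of 0.8 or more and 13 did not overlap, against 14.1% and 7.04% of all genes. Top2a (ENSMUSG00000020914), the topoisomerase of dividing cells, was at 10.2 to 27.8 CPM in the lower and 44.0 to 137 CPM in the upper libraries.

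The bone and stroma lists differed in how many genes reached an r of 0.8, against a background of 14.1%. Of 6 tested osteoclast genes 4 had an r of 0.8 or more, led by Mmp9, which neutrophils also express (r of 0.992). Oscar and Dcstamp, at low levels, had r of 0.226 and 0.0930. Acp5 (ENSMUSG00000001348), the tartrate-resistant phosphatase of osteoclasts, was at 1.38, 3.18, 2.81, 2.36, 2.41, 6.25, 3.83, 7.05, 7.88 and 55.8 CPM, with DMM vehicle 64 far above the rest. Of 5 tested osteoblast genes, Col1a1, which fibroblasts share, reached 0.8. Ibsp (ENSMUSG00000029306), bone sialoprotein, was at 5.18 to 9.95 CPM in 9 libraries and 35.6 CPM in DMM vehicle 64. Its r of 0.470 was -0.666 without DMM vehicle 32 and DMM vehicle 64, and that of Dmp1, a matrix protein of osteocytes, went from 0.349 to -0.444. The osteoblast genes Bglap, Bglap2 and Sp7 did not pass the filter. Of 6 marrow stroma genes, Cxcl12, the chemokine that holds blood stem cells in marrow, and Adipoq, which adipocytes share, reached 0.8. Without DMM vehicle 32 and DMM vehicle 64 the r of Adipoq was 0.53. Lepr and Foxc1, with r of 0.766 and 0.777, were the 2 stroma genes higher without overlap, against 7.04% of all genes. Kitl, the ligand of Kit, had an r of -0.835. Of 7 stem and progenitor genes, Gata2 and Cd34 reached 0.8, while Kit and Flt3, growth factor receptors, had r of -0.641 and -0.750. Of the chondrocyte list, Comp alone reached 0.8 among 6 tested genes.

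**Figure D2:**
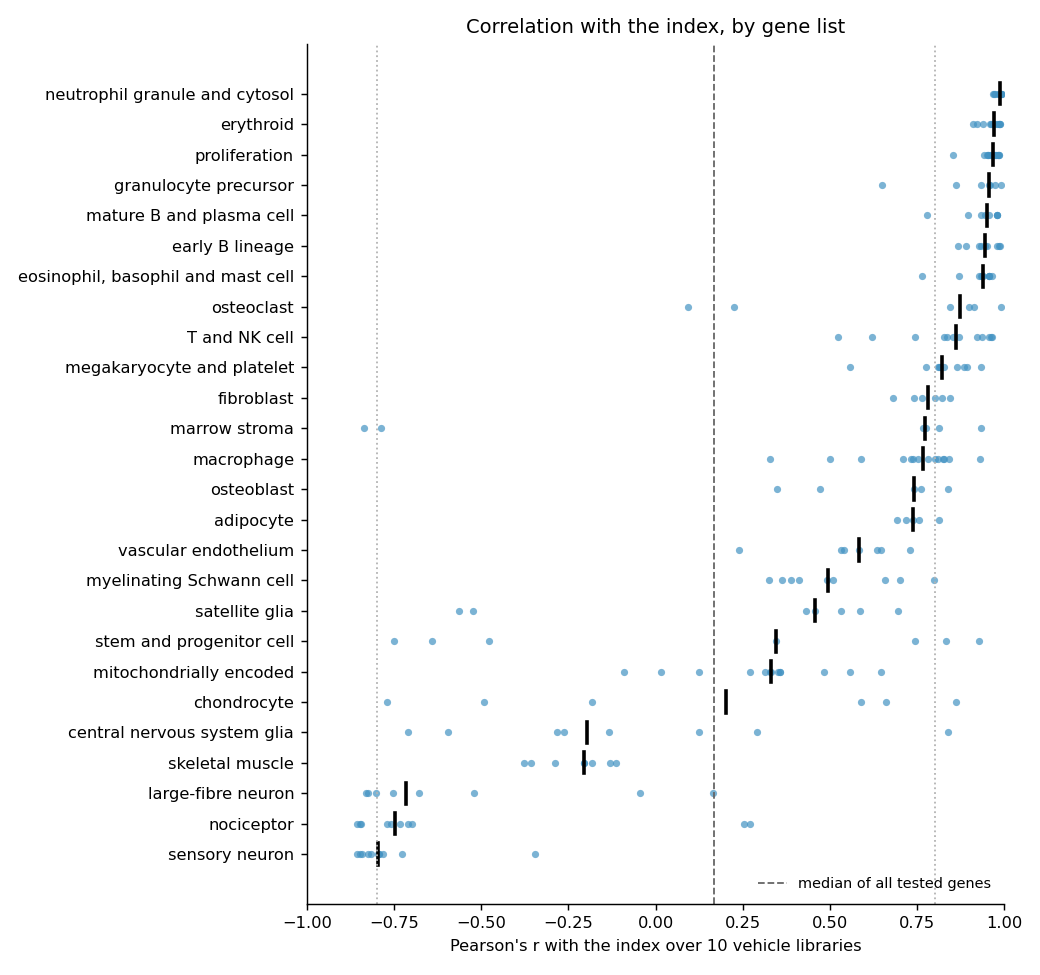
Pearson's r with the index over the 10 vehicle libraries (x axis) for each tested gene (point) of 26 gene lists (y axis), with the median of each list (bar), the median of all tested genes (dashed, 0.168) and r of -0.8 and 0.8 (dotted). Blood-cell and proliferation lists lie to the right and the 3 neuron lists to the left.

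Macrophage genes, whose cells the transgene targets, followed the index less closely than granulocyte genes did in count. Of 14, 6 had an r of 0.8 or more and 5 did not overlap, against 14.1% and 7.04% of all genes, with a median r of 0.767. Csf1r (ENSMUSG00000024621), the receptor whose promoter drives the transgene, was at 33.3, 32.5, 19.2, 35.6, 51.5, 101, 51.5, 50.2, 88.8 and 159.9 CPM. Naive vehicle 3 stood higher on this gene than its place in the order. Mrc1, the mannose receptor of resident macrophages, had an r of 0.591, and C1qa, a complement subunit that tissue macrophages make, 0.752. The difference between the lists was not tested.

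Genes of sensory neurons ran against the index. Of 11 pan-sensory genes none had a positive r and 5 had an r of -0.8 or less, against 5.53% of all genes, with a median r of -0.795. Without DMM vehicle 32 and DMM vehicle 64 the median r was -0.732, and Nefh, the heavy neurofilament chain, was the 1 gene at -0.8 or less (r of -0.817). The summed CPM of the 11 genes was 15340, 16910, 19640, 17820 and 15320 in the lower and 9889, 15000, 8970, 13070 and 6198 in the upper libraries. The mean of the lower libraries was 1.6-fold that of the upper, and every upper library lay under the lowest of the others, 15320. The blood-cell lists moved the opposite way, at the levels above, and their part in the difference was not tested. CPM is a share of all counts, so in bulk tissue fewer neurons, less RNA per neuron and more RNA from other cells cannot be told apart. Nefl (ENSMUSG00000022055), the light neurofilament chain, was at 3949, 3964, 4713, 4235, 3730, 2364, 3761, 2004, 2920 and 1442 CPM, and the groups overlapped through DMM vehicle 34. Tubb3, the neuronal tubulin, was at 1977 to 2231 and 912 to 1713 CPM. All 10 libraries expressed these markers of the labelled tissue.

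Among sensory neuron classes the pattern was not uniform. Of 10 nociceptor genes, 3 had an r of -0.8 or less (5.53% of all genes did), and these were P2rx3, Trpa1 and Trpv1, the ATP, irritant and heat channels of pain-sensing neurons (r of -0.857, -0.848 and -0.844). Scn10a (ENSMUSG00000034533), the Nav1.8 sodium channel, was at 644, 1169, 906, 1158, 772, 465.9, 801, 909.8, 326 and 145 CPM. DMM vehicle 63 and DMM vehicle 64 were lowest, and naive vehicle 4 stayed within the range of the lower libraries. The neuropeptide genes Calca and Tac1 had positive r, of 0.253 and 0.271. Calca (ENSMUSG00000030669), which encodes CGRP, was at 1002 to 1255 CPM in the lower and 749.5 to 2023 CPM in the upper libraries, highest in DMM vehicle 63. Summed nociceptor CPM differed by 1.24-fold, lower libraries over upper. Of 8 genes of large-fibre neurons, 3 had an r of -0.8 or less, against the same 5.53%, and these were Etv1, Scn1a and Kcns1. Scn1a, the Nav1.1 channel, was at 144, 187, 146, 194, 136, 97.6, 162, 71.6, 41.0 and 31.8 CPM, and Pvalb, the proprioceptor marker parvalbumin, had an r of -0.0440.

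By the same naming rule, the 12 genes of lowest r lay between -0.952 and -0.926, while the lowest r of any tested gene was -0.971. They were Pcdha2, Tmc5, Ddx25, Mrps5, Hspd1, Itfg1, Pgm1, Fam110b, Armcx3, Cfap69, Fam3c and Epdr1. Of these, 1 was at least 2-fold lower without overlap, Pcdha2, a protocadherin of neurons, at 15.1, 13.0, 6.01, 9.87, 7.78, 3.50, 4.88, 4.24, 2.82 and 0.674 CPM. Pcdha genes share their last exons, so its reads may come from other members of the cluster. Hspd1 (the mitochondrial chaperonin) was 1.22-fold higher in the lower libraries, Mrps5 (a mitochondrial ribosomal protein) 1.22-fold, Pgm1 (a phosphoglucomutase) 1.32-fold and Itfg1 1.37-fold.

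Glial lists stood between the blood and the neuron lists. No gene of satellite glia (7 genes, median r 0.456), of myelinating Schwann cells (9 genes, median r 0.493) or of the mitochondrial genome (13 genes, median r 0.333) reached 0.8 in either direction. All 6 fibroblast genes had a positive r, and 3 of them reached 0.8. Dcn, the matrix proteoglycan decorin, was at 565 to 1462 CPM in the lower and 1091 to 5352 CPM in the upper libraries. Over all 10 libraries no endothelial gene reached 0.8 (median r 0.582), but without DMM vehicle 32 and DMM vehicle 64 the median was 0.818. At least 2-fold higher without overlap were 3 of 7, Pecam1, Cdh5 and Emcn, against 7.04% of all genes. Pecam1 was at 20.6 to 32.1 and 37.7 to 137 CPM, with naive vehicle 4 highest. No skeletal muscle gene of 8 had a positive r over all 10 libraries (median -0.205), but the median r was 0.310 without DMM vehicle 32 and DMM vehicle 64, and DMM vehicle 32 was far above the rest on these genes. Of the central nervous system glia list, Gfap alone reached 0.8 among 8 genes.

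**Figure D3:**
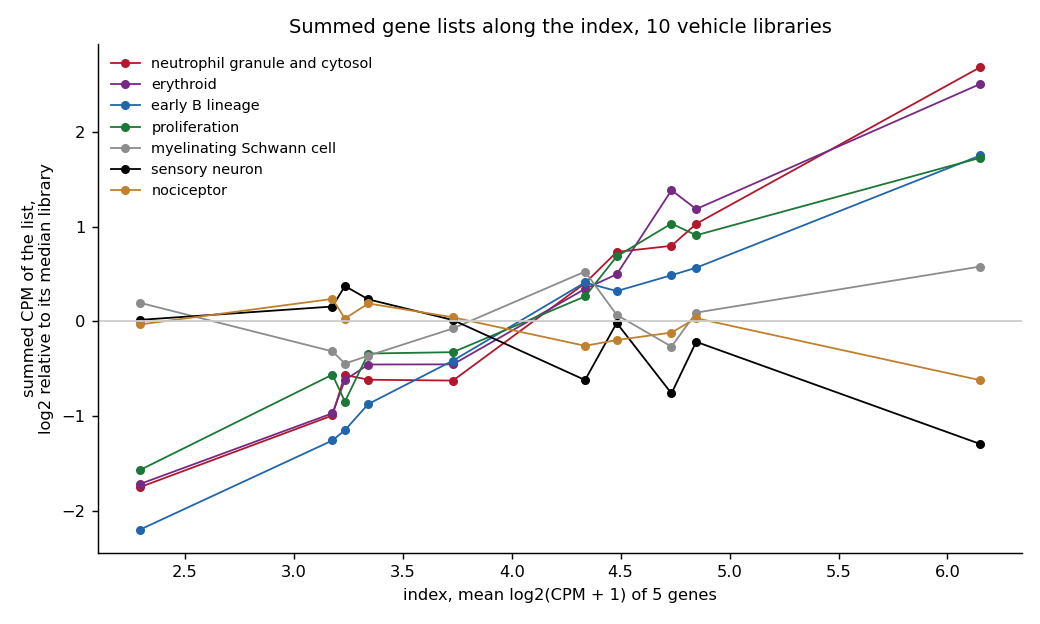
Summed CPM of 7 gene lists in the 10 vehicle libraries, as log2 relative to the median library of each list (y axis), against the index (x axis, mean log2(CPM + 1) of 5 genes). The neutrophil, erythroid, early B-lineage and proliferation lists climb with the index, and the sensory neuron list is lowest in the library of highest index, at 6198 CPM.

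The order of the libraries was then set against the surgery labels. The index was 4.19 ± 1.499 in DMM vehicle mice and 3.88 ± 0.645 in naive vehicle mice (SD, n = 5 each), a difference of 0.31 (exact permutation test, two-sided, p 0.675, smallest possible 0.00794). The DMM mice held 2 of the 5 lowest and 3 of the 5 highest places. Without DMM vehicle 64 the difference was -0.18 (exact p 0.825), and with DMM limited to mice 32 to 34 it was -0.56 (exact p 0.393), so its direction is not determined. Exact p over its alternatives ran from 0.270 to 0.873. Across 20599 genes, edgeR's quasi-likelihood test called 0 genes between DMM and naive vehicle mice (0%), and 214 (1.04%) had an unadjusted p under 0.05. With the index as a covariate it again called 0, with 321 at an unadjusted p under 0.05, and DESeq2 called 0, with 371. The smallest adjusted p by edgeR was 0.972. In the edgeR fit Mpo was 1.05 log2 higher in DMM (SE 0.70) and Alas2 0.59 (SE 0.67), neither beyond the spread between mice (edgeR adjusted p 0.972 each). As means of log2(CPM + 1), the scale of the index, the differences were smaller, 0.43 for Mpo and 0.24 for Alas2.

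The genes of smallest p in that comparison were not genes that followed the index. Gldn (ENSMUSG00000046167), a Schwann-cell protein of the node of Ranvier, was at 20.7, 19.4, 27.2, 18.6 and 22.3 CPM in DMM vehicle 32, 33, 34, 63 and 64. It was at 13.2, 13.8, 17.3, 16.2 and 11.8 CPM in naive vehicle 1 to 5, below every DMM library, a log2 difference of 0.54 (SE 0.15, edgeR adjusted p 0.972). Its r with the index was 0.352. Zbtb16, a transcription factor that glucocorticoids induce, was at 7.68 to 18.99 CPM in DMM and 8.02 to 44.0 CPM in naive mice (log2 difference -1.16, SE 0.41, edgeR adjusted p 0.972), with an r of 0.00631. The others named by the rule were Fam169b and Mgmt, higher in DMM, and Mt2 and Neu3, lower in DMM, with r of 0.283 to 0.498.

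The libraries of mice given AP20187, which the ordering did not use, carried the index genes in other proportions. Mpo was at 161 to 1313 CPM and Elane at 45.9 to 424 CPM, against 7.10 to 237.9 and 2.28 to 83.6 CPM with vehicle. Alas2 was at 33.2 to 129.5 CPM, within the range with vehicle. Rag1 had 0 to 12 counts a library and Vpreb3 0 to 20 counts, against at least 98 and 20 counts with vehicle. The ratio of Mpo to Alas2 counts was 2.68 to 23.4 with AP20187 and 0.204 to 0.435 with vehicle, without overlap, while the ratio of Mpo to Elane was 2.66 to 4.37 with AP20187. These differences between treatments were not tested. Over the 9 AP20187 libraries Mpo and Elane varied together (r 0.983, exact permutation p 2.2e-05, adjusted p 6.6e-05 over 3 tests, rho 0.967, exact p 0.000165), with an r of 0.932 without the 2 libraries farthest from the median of Mpo. Mpo and Alas2 had an r of 0.165 (exact permutation p 0.680) and a rho of 0.183 (exact p 0.644), and Elane and Alas2 an r of 0.0694 (exact permutation p 0.861) and a rho of 0.05 (exact p 0.912). Both had an adjusted p of 0.861 for r. Without 2 libraries these were 0.0595 and -0.144. With vehicle the same pairs had r of 0.966 and 0.962. All these correlations pooled DMM and naive mice with no term for surgery, and r within each surgery group was not computed. With AP20187, Mpo was at 584 to 1313 CPM in DMM and 161 to 781 CPM in naive mice.

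**Figure D4:**
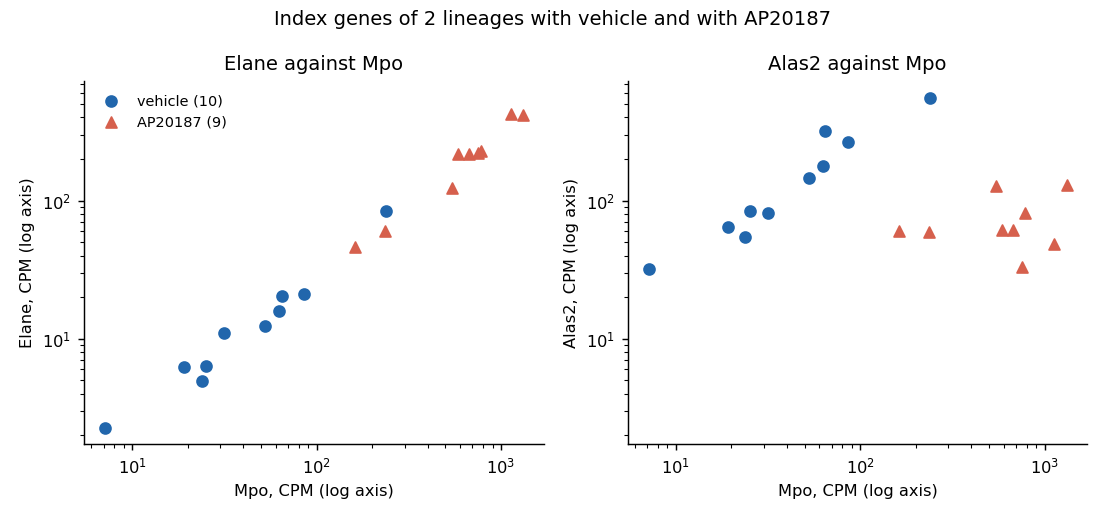
Mpo (x axis, CPM, log axis) against Elane (left) and Alas2 (right, y axes, CPM, log axes) in the 10 vehicle libraries (circles) and 9 AP20187 libraries (triangles), 1 point per mouse. Both treatments lie on 1 line for Elane, whereas for Alas2 the AP20187 libraries lie to the right of the vehicle line, at ratios of Mpo to Alas2 of 2.68 or more.

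Whether the genes that followed the index with vehicle did so in other mice was examined in the 9 AP20187 libraries. A slope on the index was fitted for 20734 genes with edgeR, with surgery in the model and the 5 index genes left out. No gene passed (0%), with a smallest adjusted p of 0.0702, and 4784 (23.1%) had an unadjusted p under 0.05, of which 2453 had a positive and 2331 a negative slope (11.8% and 11.2%). The count depended on the method, since DESeq2 called 3086 genes and edgeR without a surgery term called 2629. An index without Alas2 gave 460, and library totals without TMM scaling gave 485. Of 2881 genes with an r of 0.8 or more with vehicle, 94.5% had a positive slope, and 1551 (53.8%) had a positive slope at an unadjusted p under 0.05. None had a negative slope at that p. Of 1128 genes with an r of -0.8 or less, 1.68% had a positive slope, and 544 (48.2%) had a negative slope at an unadjusted p under 0.05. Among all 19725 genes tested in both, 49.6% had a positive slope, and the shares at an unadjusted p under 0.05 were 12.2% positive and 11.8% negative. Genes of 1 cell type vary together, so these shares do not count independent events.

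By list, 12 of 12 neutrophil genes, 7 of 7 granulocyte precursor genes, 14 of 14 proliferation genes and 10 of 12 erythroid genes had a positive slope at an unadjusted p under 0.05 in the AP20187 libraries, against 11.8% of all genes. With Rag1 and Vpreb3 near the floor there, the index rested mainly on Mpo, Elane and Alas2. Positive slopes of granulocyte and erythroid genes are therefore partly built into the index, and they do not show that these lineages varied together. Prtn3 had a slope of 1.92 log2 per unit of index (SE 0.32) and Ms4a3, which followed the index less closely with vehicle, a slope of 1.90 (SE 0.35), each with an edgeR adjusted p of 0.0702. Of the early B-lineage list 5 genes passed the filter, and Cd79a alone had a positive slope at that p. Pax5 was at 0.0151 to 1.11 CPM, with a slope of -0.02 (SE 1.23). Macrophage genes gave 1 of 14 and osteoblast genes 0 of 5, counts that are near the 11.8% of all genes. Of the nociceptor genes 5 of 10 had a negative slope at an unadjusted p under 0.05, as had 4 of 8 large-fibre and 3 of 11 pan-sensory genes, against 11.2% of all genes. Scn10a had a slope of -2.29 (SE 0.84, edgeR adjusted p 0.157) and Ntrk3, the receptor of proprioceptors, -1.83 (SE 0.34, edgeR adjusted p 0.0702), while Calca had 0.01 (SE 0.45).

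The genes of smallest p for a positive slope were Ddx39a, an RNA helicase, AI662270, a non-coding RNA, and Mcm2, a subunit of the replication helicase. Mcm2 (ENSMUSG00000002870) had a slope of 1.45 (SE 0.22, edgeR adjusted p 0.0702). With vehicle Mcm2 had an r of 0.970, at 5.77 to 11.4 CPM in the lower and 13.5 to 31.2 CPM in the upper libraries, and AI662270 had an r of 0.984. For a negative slope they were Bach2, Nbeal1 and Ppp1r9a. Bach2 (ENSMUSG00000040270), a transcription factor of lymphocytes, had a slope of -2.60 (SE 0.40, edgeR adjusted p 0.0702) but an r of 0.122 with vehicle, at 12.3 to 26.3 CPM. Ppp1r9a, a neuronal actin-binding protein, had -1.32 (SE 0.22, edgeR adjusted p 0.0702) and an r of -0.635 with vehicle.

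**Figure D5:**
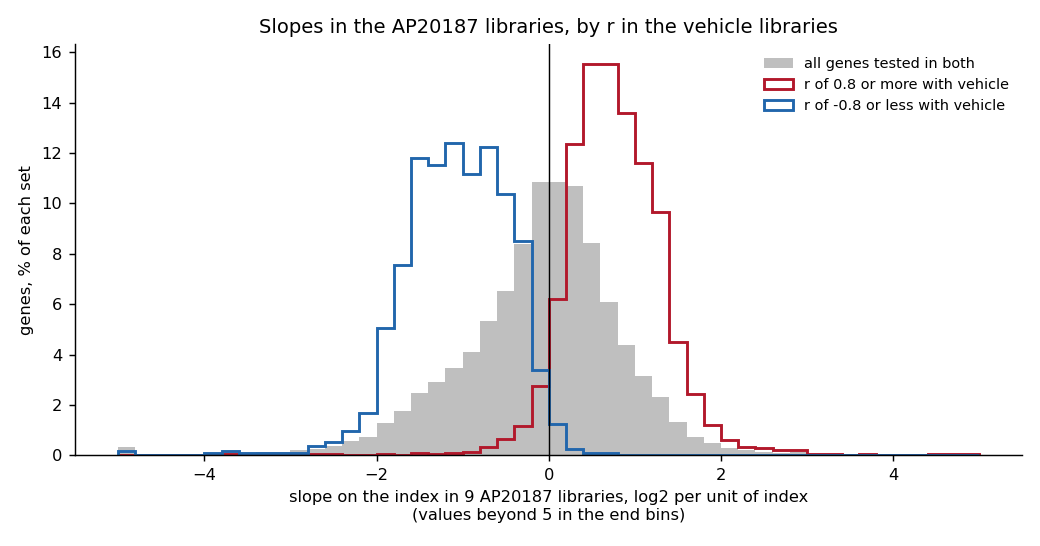
Distribution of slopes on the index in the 9 AP20187 libraries (x axis, log2 per unit of index) for genes with an r of 0.8 or more (red), of -0.8 or less (blue) with vehicle and for all genes tested in both (grey), as % of each set (y axis). Positive slopes make up 94.5% of the red, 1.68% of the blue and 49.6% of the grey set.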

How the data were processed

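RNA of pooled ganglia was sequenced from stranded poly(A) libraries, per the labels' protocols, in 10 vehicle and 9 AP20187 mice. Raw integer counts and FPKM (fragments relative to gene length and sequencing depth) were deposited by the authors for 36682 genes. The submitters' processing notes name cutadapt, HISAT2, StringTie and the build GRCm39. Which tool made the counts, its settings and the use of strand are not given in the sources used here. A further deposited count table without gene identifiers has column totals within 1 count of these and was not used. Depth was 60984830 to 74691396 counts a library. No 2 libraries of the same group agreed within sampling noise. Reads carry no molecular identifiers, so precision estimates cover counting error and the spread between mice only.

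CPM was the count over the column total, and a pseudocount of 1 was added before log2. Genes were kept by edgeR's filterByExpr (minimum count 10) in the vehicle or AP20187 libraries. Tests used edgeR 4.0.16 (quasi-likelihood, TMM, R 4.3.3) with Benjamini-Hochberg adjustment and a threshold of 0.05, DESeq2 1.42.0 as an alternative, and exact or 100000-resample permutation tests in Python 3.11.15, all two-sided. "Without overlap" means that every upper library lay beyond every lower library and that the means differed at least 2-fold. The fits had 8 (DMM against naive) and 6 (AP20187 slope) residual degrees of freedom. On simulated data with 200 genes changed by 2 log2, the DMM against naive fit recovered 85.5% of them among 20599 genes and the slope fit 71.0% among 20738 genes.

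Named genes were the 5 index genes, the 12 of highest and of lowest r among genes with a mean of at least 1 CPM and a symbol that is not a predicted or clone name, up to 4 of the most abundant members of each of 26 gene lists, and the 3 of smallest p in each direction of the 2 fits. Some genes that this rule names are not reported here. Other list members named beside them were chosen after their values were seen. The libraries, the index and the lists were chosen with earlier results of these data known. Alternatives were another index, scaling, pseudocount, filter or unit, and leaving out each library.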

Additional observations from a re-analysis of the deposited data

Results flagged for a closer look

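Of 60 measures in each of the DMM and the naive vehicle mice, 120 groups in all, 3 held a library whose gap to its nearest neighbour exceeded the limit for 5 values (Dixon's 95% critical value, 0.71 of the range), and chance flags about 1 in 20. The summed sensory neuron list, as log2(CPM + 1), was 12.6 in DMM vehicle 64 against 13.7 in the nearest DMM library. The summed chondrocyte list was 6.82 in DMM vehicle 64 against 6.16 in the nearest. Armcx3, one of the genes of lowest r, was at 7.32 log2(CPM + 1) in naive vehicle 4 against 7.66 in the nearest naive library. The index itself was not among these, nor was any of its 5 genes.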

How the results depend on the processing

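The number of genes with an r of 0.8 or more stayed within 1.5 times of 2907 under 22 of 23 alternatives, with 1617 to 4152 when a library was left out. The number with an r of -0.8 or less did so under 16 of 23. It was 1894 after TMM, 620 by Spearman rho and 721 without the libraries of highest and lowest index, and 176 to 2516 when a library was left out. Genes higher without overlap numbered 1230 to 2067 and genes lower without overlap 33 to 312 when a library was left out, and the latter were 70 after TMM and 59 without the libraries of highest and lowest index. The index difference of DMM and naive ran from -0.18 to 0.79 when a library was left out and was -0.56 with DMM limited to mice 32 to 34, a limit chosen after seeing the data. DMM against naive called 0 genes under all 17 alternatives run, with 0 to 0 when a library was left out. The AP20187 slope called 0 genes in each fit that left out a library, 460 without Alas2, 436 with Mpo and Elane only (added after seeing the data), 485 without scaling, 3086 with DESeq2 and 2629 without the surgery term, and the cause was not tested. With a library left out, r with the index was -0.532 to -0.279 for the library total, 0.324 to 0.777 for the share of the 10 most abundant genes, 0.317 to 0.654 for the mitochondrial share and 0.387 to 0.648 for genes detected. The r of 140 named genes never changed sign where it was 0.8 or more in size, and it moved by 0.1 or more in 223 of 1960 recomputed values. No paired analysis was possible because DMM and naive libraries, the groups tested against each other, share no replicate number in the labels, and the vehicle and AP20187 libraries were not tested against each other. The number of libraries, 4 or 5 a group, limits precision. Counts near the floor, such as the 20 counts of Vpreb3 in DMM vehicle 32, are imprecise.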

Other observations

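Some libraries stood apart on single genes or lists. Skeletal muscle genes summed to 1892 CPM in DMM vehicle 32, the library of lowest index, and to 13.8 to 464 CPM in the other 9 vehicle libraries. Acta1, the actin of skeletal muscle, was at 404 CPM there, and Ckm, the muscle creatine kinase, at 405 CPM. Without DMM vehicle 32 and DMM vehicle 64 the median r of the 8 muscle genes with the index was 0.310, against -0.205 with all libraries. Mobp, a myelin gene of oligodendrocytes, was at 57.1 CPM in DMM vehicle 63 and at 17.8 to 22.5 CPM in the others. Endothelial genes summed to 359 CPM in naive vehicle 4 and to 76.7 to 175 CPM in the others. Hlf, a gene of the stem and progenitor list, was at 11.7 to 23.0 CPM in the 5 lower libraries and 33.2 to 46.3 CPM in the 5 upper libraries (r of 0.743, and 0.921 without DMM vehicle 32 and DMM vehicle 64). No explanation was tested for these values.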
